A study of Aphis gossypii with 6 samples.

Results

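The genes described here encode enzymes that build fatty acids and turn them into cuticular hydrocarbons in Aphis gossypii, the cotton or melon aphid, which feeds on plant sap. They were chosen by the product text of the deposited gene table, which had to name a fatty acid synthase, an acetyl-CoA carboxylase, a fatty acyl-CoA reductase, an acyl-CoA desaturase, an elongation enzyme for very long chain fatty acids, or a long-chain or very-long-chain fatty acid enzyme. The text gave 70 of the 14013 genes in the table, in 7 enzyme classes of 24 fatty acyl-CoA reductases, 15 elongases, 14 fatty acid synthases, 8 desaturases, 4 enzymes of other elongation steps, 3 fatty acid-CoA ligases and 2 acetyl-CoA carboxylases. RNA from pooled whole bodies was sequenced in 3 libraries of RGL, a strain with resistance to beta-cypermethrin, a pyrethroid insecticide, that goes back to a population of a Chinese wolfberry field, and in 3 libraries of SGL, a sensitive strain whose genotype is labelled WT. Neither strain had been exposed to beta-cypermethrin, and the labels give no age, stage or host plant for either. Each condition is a single strain, so resistance and any other difference between the strains cannot be told apart. Whether the 3 libraries of a strain stand for separate cultures is not stated in the labels, so the p-values rest on a spread between samples that may be purely technical.

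Fatty acid synthesis begins when acetyl-CoA carboxylase makes malonyl-CoA, which fatty acid synthase joins step by step into a saturated chain. A cycle of an elongase, a ketoacyl reductase, a dehydratase and an enoyl reductase then lengthens the chain, and desaturases put double bonds into it. In insects, oenocytes and epidermal cells use part of these chains for hydrocarbons: fatty acyl-CoA reductases reduce the acyl-CoA, and a cytochrome P450 of the 4G family makes the hydrocarbon that coats the cuticle and slows water loss. The remaining fatty acids go into membranes, into the triglyceride store of the fat body, or into wax alcohols.

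Total counts were between 31290134 and 46681719 per RGL library and between 31653431 and 36110420 per SGL library. The second principal component of log2 CPM (a gene's counts scaled to a common library size, with edgeR's TMM factors) held 16.4% of the variance and set RGL replicate 1 apart, and 624 and 875 genes differed over 2-fold between it and RGL replicates 2 and 3, against 205 between replicates 2 and 3. Results below are therefore also given without it. As whole bodies were sequenced, fewer cells of a type and less RNA per cell cannot be told apart. Counts of marker genes called (edgeR, adjusted p under 0.05) are to be read against 21.4% higher and 14.4% lower among all tested genes. Of 52 cuticle protein genes, 29 of 50 tested were higher and 3 lower in RGL; their summed level was between 17009 and 30173 CPM in RGL libraries, with replicate 1 the highest, against 12671 to 13140 CPM in SGL libraries. Of 23 genes for cathepsin B and aminopeptidase N, which mark the aphid gut, 16 of 20 tested were higher, at 9343 to 12508 CPM in RGL and 3549 to 3763 CPM in SGL, and the cathepsin B genes LOC114127871 and LOC114130417 were at 0 everywhere. The fat body list held only apolipophorin (LOC114120301) and the vitellogenin receptor (LOC114130628), neither called, at 170 to 246 CPM in RGL and 159 to 212 CPM in SGL. The receptor was matched only by the word vitellogenin and is not itself a fat body marker, so this sum says little about the fat body. Summed levels of muscle markers were 12021 to 13587 CPM in RGL and 11145 to 11804 CPM in SGL, with 4 of 19 tested higher and 6 lower. Germline markers summed to 467 to 501 CPM in RGL and 432 to 454 CPM in SGL (1 of 7 tested higher), and nervous system markers to 735 to 802 CPM in RGL and 739 to 772 CPM in SGL (3 of 19 tested higher, 5 lower). The part of the gut and cuticle markers in the results below was not tested.

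Of the 70 genes, 69 had a count and 67 were tested in edgeR's quasi-likelihood test after its filter on low counts. In RGL 39 of the 67 (58.2%) were higher and 3 (4.48%) were lower than in SGL at a Benjamini-Hochberg adjusted p under 0.05, where 21.4% of all 11149 tested genes were higher and 14.4% were lower. Counts of called genes per enzyme class below are to be read against these shares. At least 2-fold higher were 21 (31.3%), against 8.31% of all tested genes, and at least 2-fold lower were 2, against 1.96%. Every RGL library lay above every SGL library in 44 of the 67 (65.7%), against 28.2% of all tested genes, and every RGL library lay below every SGL library in 8, against 25.8%. The median log2 fold change of RGL over SGL was 0.60, against -0.0037 over all tested genes, and 52 of the 67 values were positive. Without RGL replicate 1 the calls were 42 higher and 6 lower, where 28.6% and 24.9% of all tested genes were called, and the median was 0.58. The 42 include the synthase locus newGene_1932, which had 0 counts in SGL and passed the filter only through RGL. With libraries scaled by their totals alone, which shifts the median of all genes by -0.15, the calls were 31 higher and 7 lower (15.8% and 20.8% of all tested genes) and the median of the 67 was 0.44.

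**Figure D1:**
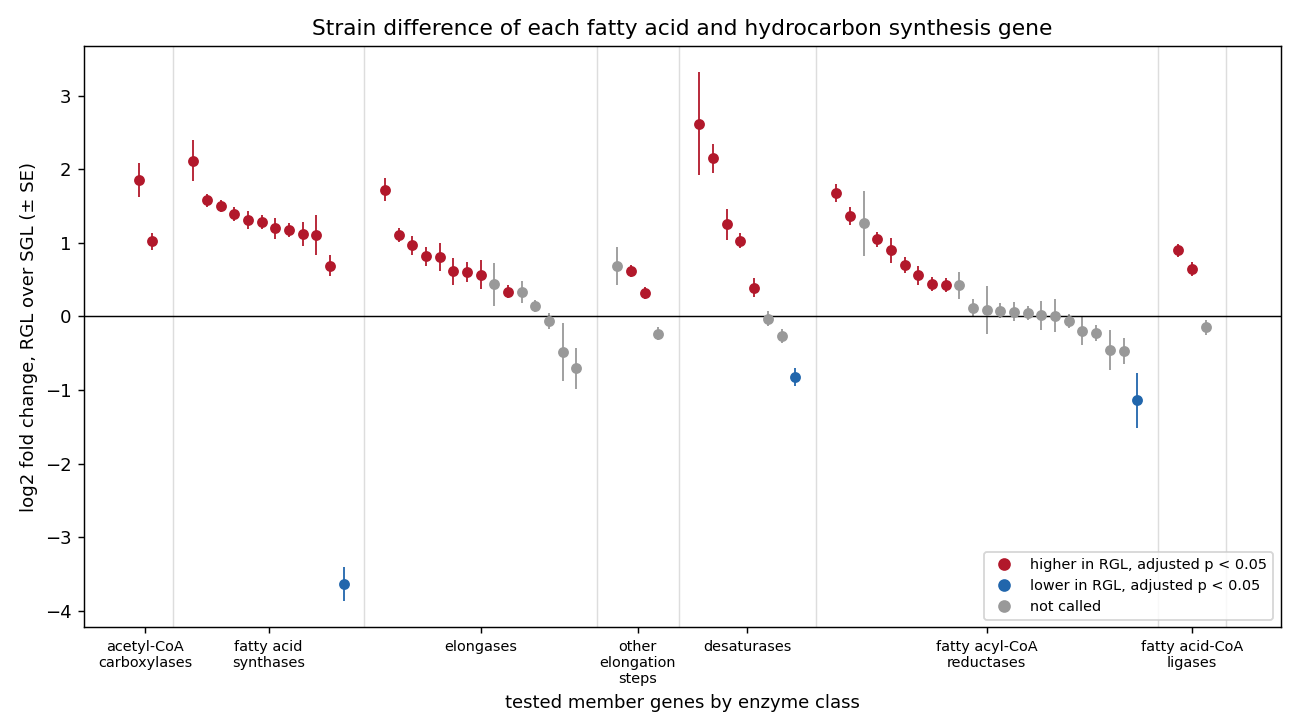
Log2 fold change of RGL over SGL (points, bars give the SE of edgeR's fit, 3 libraries per strain) for each tested gene, grouped by enzyme class and sorted within it; red is higher and blue lower in RGL at an adjusted p under 0.05. All but 1 of the 12 tested fatty acid synthases lie above 0 and 1 lies at -3.63, while the 23 tested fatty acyl-CoA reductases spread on both sides of 0 with a median of 0.09.

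Transcripts of the first committed step were higher in RGL. Acetyl-CoA carboxylase, which makes malonyl-CoA, was listed at 2 loci, and both were called at 2-fold or more; 0 were lower at an unadjusted p under 0.05, and likewise by DESeq2 and limma-voom. The deposited annotation gives 1 of the 2 loci the central region domain of the enzyme and 1 no domain. The main locus, LOC114122529, had 974, 1105 and 1228 CPM in RGL replicates 1 to 3, against 514, 554 and 562 CPM in SGL replicates 1 to 3. All RGL libraries were above all SGL libraries, with RGL replicate 1 the lowest of its strain, and the log2 fold change was 1.02 ± 0.11 (SE, edgeR adjusted p = 0.000333). A second locus named by the authors, newGene_773, also carries the name of the enzyme, with a length implied by its counts and FPKM of 761 bases against 8393 bases for LOC114122529. The implied length of newGene_773 ran from 649 to 873 bases over the libraries, so its FPKM and counts do not keep a fixed ratio. It had 18.9, 34.7 and 31.7 CPM in RGL, against 8.31, 6.78 and 8.59 CPM in SGL, a log2 fold change of 1.85 ± 0.23 (edgeR adjusted p = 0.000668). RGL replicate 1 was again the lowest RGL library and still above every SGL library. No source used here says how reads shared by such loci were assigned, so the value of the short locus is uncertain.

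Fatty acid synthase, the large enzyme that assembles the chain, was the class with the greatest share of calls among those of over 2 genes. Of 12 tested synthase genes 11 were higher in RGL, 10 of them at least 2-fold, and 1 was lower, and the median log2 fold change was 1.24. These numbers were 11 higher and 1 lower also with library totals alone. Without RGL replicate 1 they were 12 higher and 1 lower of 13 tested, with a median of 1.36. The added gene, newGene_1932, passed the filter there only through its RGL counts. The summed level of the 14 synthase genes, in the deposited FPKM (fragments per kilobase of transcript, scaled to library size) divided by the library's TMM factor, was 930, 1005 and 1041 in RGL replicates 1 to 3, against 392, 406 and 421 in SGL replicates 1 to 3. The means were 992 ± 56.5 in RGL and 406 ± 14.5 in SGL (SD, n = 3 each), a ratio of 2.44.

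3 neighbouring genes held most of the synthase level. LOC114121660, LOC114121661 and LOC114121653 together made up 81.4% of the summed TMM-scaled FPKM in RGL and 82.3% in SGL, so their joint share was near equal while their level differed. LOC114121660, the most abundant, had 2242, 2180 and 2082 CPM in RGL and 855, 885 and 926 CPM in SGL, a log2 fold change of 1.29 ± 0.10 (edgeR adjusted p = 5.74e-05). LOC114121653, whose protein model is marked low quality in the table, had 1954, 2263 and 2615 CPM in RGL and 888, 945 and 920 CPM in SGL, a log2 fold change of 1.31 ± 0.13 (edgeR adjusted p = 0.000187). RGL replicate 1 was the highest RGL library for LOC114121660 and the lowest for LOC114121653, and no RGL library overlapped SGL for either gene. LOC114121661 had 1842, 1763 and 1828 CPM in RGL and 779, 803 and 833 CPM in SGL, with a log2 fold change of 1.17 ± 0.09.

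Synthases of lower level were higher in RGL as well. LOC114121664 had 439, 494 and 520 CPM in RGL, against 179, 184 and 190.5 CPM in SGL, a log2 fold change of 1.39 ± 0.09 (edgeR adjusted p = 3.53e-05). LOC114125345 had 167, 183 and 186 CPM in RGL and 62.1, 61.2 and 56.6 CPM in SGL, a log2 fold change of 1.58 ± 0.09 (edgeR adjusted p = 1.64e-05). LOC114121759 had 160.1, 162 and 157 CPM in RGL and 56.9, 58.5 and 54.3 CPM in SGL, a log2 fold change of 1.50 ± 0.08 (edgeR adjusted p = 1.37e-05). In these 3 genes the libraries of a strain lay close together and the strains did not overlap. The greatest rise of a tested synthase was that of newGene_156, a locus of an implied 1238 bases named fatty acid synthase 2, with 14.3, 28.5 and 30.7 CPM in RGL and 6.09, 5.50 and 5.39 CPM in SGL. Its log2 fold change was 2.11 ± 0.28 (edgeR adjusted p = 0.000783), with RGL replicate 1 well below the other RGL libraries but above SGL. The other tested synthases imply 7122 to 9134 bases, apart from LOC114119081 with 1726, and reads shared between similar copies would make the value of each uncertain. The other higher synthases were LOC114121761 at 1.20 ± 0.14, LOC114121762 at 1.12 ± 0.16, LOC114119081 at 1.11 ± 0.27 and LOC114122899 at 0.69 ± 0.14 on the log2 scale. The call of LOC114119081 (edgeR adjusted p = 0.0134) was lost without SGL replicate 1, 2 or 3, at adjusted p = 0.0522, 0.0606 and 0.0522.

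Against these 11 stood LOC114129891, a synthase-like gene of low level. It had 10, 21 and 15 counts in RGL replicates 1 to 3 and 188, 186 and 178 counts in SGL replicates 1 to 3, or 0.373, 0.455 and 0.409 CPM in RGL and 4.91, 5.39 and 5.33 CPM in SGL. Every RGL library was far below every SGL library, and the log2 fold change of -3.63 ± 0.23 (edgeR adjusted p = 2.68e-05) was the farthest from 0 among the 67 tested genes. A further locus named fatty acid synthase 2, newGene_1932, went the other way with 9, 30 and 14 counts in RGL and 0 counts in each SGL library. It did not pass the filter on low counts with all 6 libraries, and passed it without RGL replicate 1 through its RGL counts alone. As SGL had 0 counts, its call as higher there and with no filter could only go that way and adds no support. Against a floor of 3 counts over the SGL group its CPM was at least 17.1-fold higher in RGL, a bound that covers counting error only. The synthase-like LOC114121656 had 0 counts in all 6 libraries.

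Elongases, the membrane enzymes that add malonyl-CoA to an existing acyl-CoA and set the chain length of the cycle, were higher by smaller factors. All 15 carry the GNS1/SUR4 family domain in the deposited annotation. Of the 15, all tested, 9 were higher and 0 lower in RGL by edgeR; LOC114122980 was lower at an unadjusted p under 0.05 and by DESeq2, and 0 were lower by limma-voom. The median log2 fold change was 0.57, and 2 genes were at least 2-fold higher. The summed TMM-scaled FPKM was 1420, 1264 and 1149 in RGL and 787, 804 and 805 in SGL, with means of 1278 ± 136 in RGL and 799 ± 10.3 in SGL (SD, n = 3 each) and a ratio of 1.60. The count of higher elongases was 10 without RGL replicate 1 (median 0.43), 6 without RGL replicate 2 and without SGL replicate 1 or 2, 4 without SGL replicate 3, and 6 with library totals alone.

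LOC114119097 had the greatest elongase change, with 24.1, 32.0 and 32.4 CPM in RGL and 8.39, 8.89 and 9.55 CPM in SGL, a log2 fold change of 1.72 ± 0.15 (edgeR adjusted p = 0.000116). LOC114124151 had 142, 163 and 142 CPM in RGL and 63.2, 71.1 and 73.3 CPM in SGL, a log2 fold change of 1.11 ± 0.10 (edgeR adjusted p = 0.000116). The strains did not overlap for these genes, and RGL replicate 1 was the lowest RGL library for LOC114119097. LOC114124683, the elongase of highest mean FPKM, had 682, 554 and 483 CPM in RGL and 287, 290 and 303 CPM in SGL, a log2 fold change of 0.97 ± 0.13 (edgeR adjusted p = 0.000918) and of 0.82 without RGL replicate 1. LOC114120762 had 580.5, 509 and 414 CPM in RGL and 276, 292 and 284 CPM in SGL, a log2 fold change of 0.82 ± 0.13 (edgeR adjusted p = 0.0018) and of 0.70 without that library. RGL replicate 1 was the highest library for both, and the lowest RGL library was still above every SGL library.

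The other elongase calls were less firm. LOC114130888 had 29.5, 33.3 and 46.9 CPM in RGL and 19.0, 24.2 and 19.3 CPM in SGL, a log2 fold change of 0.81 ± 0.19 (edgeR adjusted p = 0.0116), and its adjusted p was 0.0564 without SGL replicate 1 and 0.0551 without SGL replicate 3. LOC114126845, named elongation protein 6 and the most abundant elongase in SGL, had 687, 454 and 403 CPM in RGL and 329, 336 and 343 CPM in SGL. RGL replicate 1 decided the size of its change: the log2 fold change was 0.61 ± 0.18 (edgeR adjusted p = 0.0316) with it and 0.35 without it, and the adjusted p was 0.0513 without RGL replicate 2 and 0.107, 0.103 and 0.105 without SGL replicates 1, 2 and 3. LOC114124152 (0.60 ± 0.14, edgeR adjusted p = 0.0101) missed the threshold without SGL replicate 3, at 0.0565, and with library totals alone, at 0.063. LOC114124150 (0.57 ± 0.19, edgeR adjusted p = 0.0482) missed it without any library but RGL replicate 1, at 0.128 and 0.114 without RGL replicates 2 and 3 and 0.0906, 0.143 and 0.156 without SGL replicates 1 to 3; it also missed it with library totals alone, at 0.18, and by limma-voom, at 0.0537. LOC114130889 (0.34 ± 0.09, edgeR adjusted p = 0.021) missed it without RGL replicate 2, at 0.0666, without SGL replicates 2 and 3, at 0.0938 and 0.115, and with library totals alone, at 0.207. The 6 elongases that were not called had log2 fold changes between -0.70 and 0.44.

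In the other steps of the elongation cycle 2 of 4 genes were higher in RGL, with a median log2 fold change of 0.47; 3 were higher without RGL replicate 1 or 3, and 1 without RGL replicate 2 or any SGL library. The ketoacyl reductase of the cycle, a very-long-chain 3-oxoacyl-CoA reductase, was listed at 2 neighbouring loci. LOC114119179 had 258, 245 and 243 CPM in RGL and 154, 163 and 170 CPM in SGL, a log2 fold change of 0.62 ± 0.08 (edgeR adjusted p = 0.000685). Its neighbour LOC114119178 had 93.8, 49.9 and 43.9 CPM in RGL and 38.4, 41.8 and 36.2 CPM in SGL, so that RGL replicate 1 alone stood far above the rest. With it the log2 fold change was 0.69 ± 0.26 (edgeR adjusted p = 0.0722), and without it 0.28 (adjusted p = 0.0124); it was called by DESeq2 (adjusted p = 0.0308) and, by edgeR, without RGL replicate 3 (0.0214). The enoyl-CoA reductase LOC114122650, an art-1-like enzyme that ends each round, had 234, 217 and 206 CPM in RGL and 176, 172 and 177 CPM in SGL. Its strains did not overlap, but its log2 fold change of 0.32 ± 0.08 (edgeR adjusted p = 0.0152) missed the threshold without RGL replicate 2, at 0.0568, and without SGL replicates 1, 2 and 3, at 0.0695, 0.0763 and 0.0823, and with library totals alone, at 0.103. The dehydratase LOC114121523, hpo-8-like, had the opposite sign, with 111, 126 and 131 CPM in RGL and 142, 145 and 146 CPM in SGL and a log2 fold change of -0.23 ± 0.09 (edgeR adjusted p = 0.0676). It passed the threshold without RGL replicate 1, at 0.0203, without RGL replicate 3, at 0.044, with library totals alone, at 0.0456, and by DESeq2, at 0.0317. The 4 genes summed to 339 ± 13.1 TMM-scaled FPKM in RGL and 288 ± 6.94 in SGL (SD, n = 3 each).

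Desaturases, which place a double bond in the acyl chain, changed in opposite directions within the class. All 8 are named acyl-CoA Delta(11) desaturase in the table. The deposited annotation gives 6 of them the Fatty acid desaturase domain and 2 no domain. In RGL 5 of the 8 were higher, 4 of them at least 2-fold, and 1 was lower, with a median log2 fold change of 0.71. The count of higher desaturases was 3 without SGL replicate 1 and 3 without SGL replicate 3. LOC114119128 had 433, 266 and 266 CPM in RGL and 71.7, 68.2 and 77.9 CPM in SGL. All RGL libraries were far above SGL and replicate 1 was the highest; the log2 fold change was 2.15 ± 0.19 (edgeR adjusted p = 0.000128) and 1.87 without that replicate. LOC114119131 had 101, 62.9 and 54.9 CPM in RGL and 30.2, 30.4 and 31.2 CPM in SGL, a log2 fold change of 1.25 ± 0.21 (edgeR adjusted p = 0.00265) and of 0.95 without RGL replicate 1. LOC114121747 had 77.6, 68.0 and 65.8 CPM in RGL and 32.9, 37.5 and 33.1 CPM in SGL, a log2 fold change of 1.03 ± 0.11 (edgeR adjusted p = 0.000236). These 3 desaturases were called under all 13 alternative settings.

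LOC114121724 had 144, 103 and 108 CPM in RGL and 92.8, 90.5 and 88.0 CPM in SGL, where RGL replicate 1 stood above all other libraries. Its log2 fold change of 0.39 ± 0.13 (edgeR adjusted p = 0.049) was 0.22 without that library, and the adjusted p was 0.121, 0.138 and 0.167 without SGL replicates 1, 2 and 3. It also missed the threshold with DESeq2's size factors (adjusted p = 0.058), with library totals alone (0.107) and by limma-voom (0.0572). LOC114121736 was near the floor of detection, with at most 1.30 CPM in RGL and 0.203 CPM in SGL; its log2 fold change of 2.62 ± 0.70 (edgeR adjusted p = 0.02) missed the threshold without SGL replicate 1, at 0.0826, and without SGL replicate 3, at 0.0822. The lower gene, LOC114121739, had 38.1, 29.6 and 28.9 CPM in RGL and 55.8, 59.4 and 55.6 CPM in SGL, without overlap and with a log2 fold change of -0.82 ± 0.12 (edgeR adjusted p = 0.00161). It was called lower under all 13 alternative settings.

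Most of the desaturase level came from 1 gene that was not called and 1 gene just short of a call. LOC114119124 and LOC114133118 together held 77.7% of the summed TMM-scaled FPKM in RGL and 88.9% in SGL. LOC114119124 had 1639, 1400 and 1425 CPM in RGL and 1524, 1530 and 1505 CPM in SGL; the libraries of the strains overlapped, and the log2 fold change was -0.03 ± 0.10 (edgeR adjusted p = 0.84). LOC114133118 had 904, 1011 and 1000 CPM in RGL and 1183, 1171 and 1146 CPM in SGL. It lay below SGL in every RGL library, at a log2 fold change of -0.26 ± 0.10 (edgeR adjusted p = 0.0604), just short of the threshold. It was called lower without RGL replicate 1, at -0.21 (adjusted p = 0.00293), with library totals alone, at -0.41 (0.0214), by DESeq2 (0.00391) and by limma-voom (0.0445). LOC114119128 made up 11.2% of the class level in RGL and 2.67% in SGL. The sum over the class was 1692, 1509 and 1508 TMM-scaled FPKM in RGL and 1477, 1479 and 1483 in SGL, a ratio of 1.06 between the means of 1570 ± 106 and 1480 ± 3.01 (SD, n = 3 each).

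**Figure D2:**
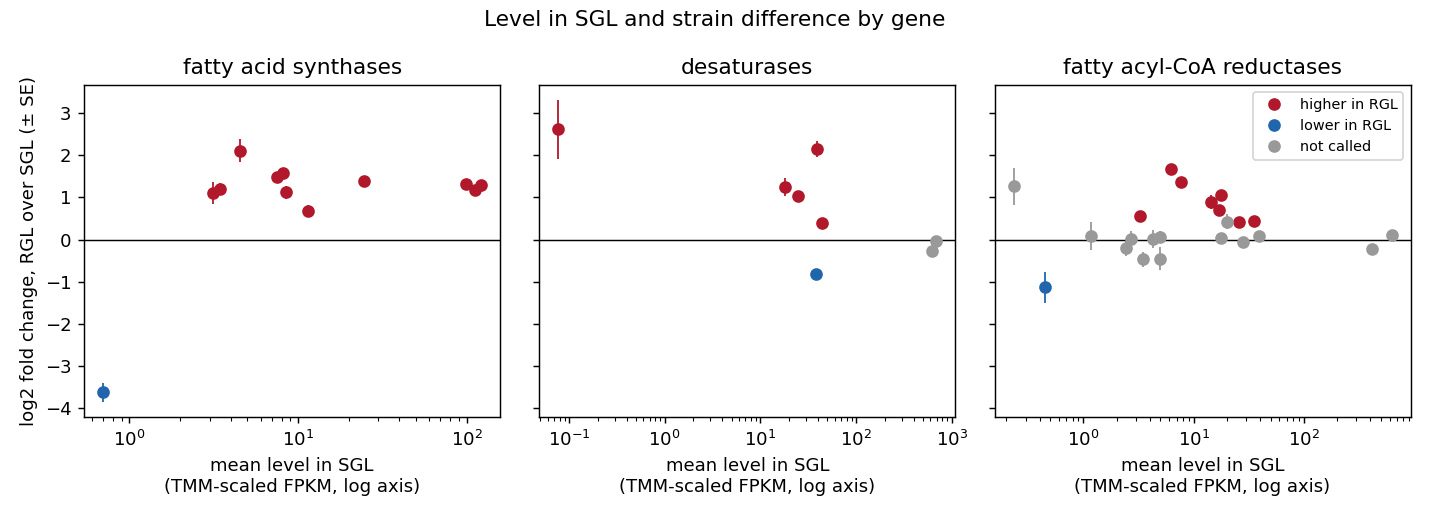
Log2 fold change of RGL over SGL (points, bars give the SE) against the mean TMM-scaled FPKM in SGL on a log axis, for the tested synthases, desaturases and fatty acyl-CoA reductases. The 3 most abundant synthases are all higher in RGL, whereas the 2 most abundant desaturases and the 2 most abundant reductases lie near 0 and were not called, 1 of the desaturases at an adjusted p of 0.0604.

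Fatty acyl-CoA reductases, which reduce acyl-CoA on the way to alcohols, waxes and hydrocarbons, held the most genes and a share of calls nearer to that of all genes. All 24 carry the Male sterility protein domain in the deposited annotation. Of 23 tested, 8 (34.8%) were higher, 3 of them at least 2-fold, and 1 was lower, and the median log2 fold change was 0.09. With library totals alone 5 were higher and 2 lower (15.8% and 20.8% of all tested genes), and the median turned to -0.05. The wat-like genes, named after a Drosophila reductase, gave 4 higher and 1 lower of 12 tested, the genes named fatty acyl-CoA reductase 1 or 1-like 2 higher of 5, and the genes named after Drosophila CG numbers 2 higher of 6. The higher shares were 33.3%, 40% and 33.3% in that order, against 21.4% of all tested genes. Differences between these small groups were not tested.

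LOC114129753 and LOC114129754, neighbouring 1-like genes, had the greatest rises among the called reductases. LOC114129753 had 46.1, 36.9 and 39.6 CPM in RGL and 13.0, 12.8 and 12.4 CPM in SGL, a log2 fold change of 1.68 ± 0.12 (edgeR adjusted p = 4.4e-05). LOC114129754 had 39.8, 43.1 and 38.6 CPM in RGL and 13.8, 16.2 and 17.3 CPM in SGL, a log2 fold change of 1.36 ± 0.12 (edgeR adjusted p = 0.000121). Both were clear of SGL in every library, and being adjacent and alike in name they may share reads. The wat-like LOC114127636 had 74.8, 72.3 and 66.9 CPM in RGL and 35.4, 36.4 and 31.7 CPM in SGL, a log2 fold change of 1.05 ± 0.10 (edgeR adjusted p = 0.000144). LOC114124227, named after CG5065, had 64.9, 50.2 and 41.2 CPM in RGL and 24.5, 30.1 and 29.2 CPM in SGL, a log2 fold change of 0.90 ± 0.17 (edgeR adjusted p = 0.00477). The wat-like LOC114127638 had 37.0, 44.8 and 42.4 CPM in RGL and 24.6, 25.5 and 26.8 CPM in SGL, a log2 fold change of 0.69 ± 0.11 (edgeR adjusted p = 0.00189). No RGL library overlapped SGL for these 3 genes.

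The remaining higher reductases were LOC114131747 (log2 fold change 0.56 ± 0.13), LOC114125943 (0.44 ± 0.09) and LOC114132712 (0.43 ± 0.09). All 3 calls were lost with library totals alone, at edgeR adjusted p = 0.059, 0.0568 and 0.0606 in that order, and that of LOC114131747 also without SGL replicate 3, at 0.0588. The lower gene, wat-like LOC114129900, had 11, 12 and 15 counts in RGL and 27, 30 and 26 counts in SGL, a log2 fold change of -1.14 ± 0.38 (edgeR adjusted p = 0.0457). Its call was lost without each library in turn, at adjusted p = 0.0596, 0.148 and 0.076 without RGL replicates 1 to 3 and 0.107, 0.153 and 0.13 without SGL replicates 1 to 3, and also by DESeq2 (0.0519) and with no filter on low counts (0.0854). The wat-like LOC114119562 had 14, 18 and 0 counts in RGL and 4, 4 and 0 counts in SGL and did not pass the filter.

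The bulk of the reductase level, like that of the desaturases, was in genes that were not called. LOC114126643 and LOC114119300, both wat-like, held 74.6% of the summed TMM-scaled FPKM in RGL and 80.2% in SGL. LOC114126643 had 1078, 1162 and 896 CPM in RGL and 959, 970 and 958 CPM in SGL, a log2 fold change of 0.12 ± 0.12 (edgeR adjusted p = 0.45). LOC114119300 had 738, 890 and 810 CPM in RGL and 943, 902 and 1011 CPM in SGL, a log2 fold change of -0.23 ± 0.11 (edgeR adjusted p = 0.129) that passed the threshold without RGL replicate 1, at 0.0372, and with library totals alone, at 0.0486. For the first gene RGL replicate 3 lay below SGL and the others above, and for the second all RGL libraries lay below SGL. The class summed to 1391, 1536 and 1292 TMM-scaled FPKM in RGL and 1280, 1278 and 1347 in SGL, so that the strains overlapped.

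Fatty acid-CoA ligases activate free fatty acids with coenzyme A so that they can be elongated, stored or oxidised. Of 3 genes, all with an AMP-binding domain, 2 were higher; 0 were lower by edgeR, at an unadjusted p under 0.05, by DESeq2 or by limma-voom. LOC114130018, bubblegum-like and the most abundant of the class, had 347, 371 and 396 CPM in RGL and 189, 210 and 199 CPM in SGL, a log2 fold change of 0.90 ± 0.09 (edgeR adjusted p = 0.000199). LOC114126432, ligase 4, had 118, 137 and 146 CPM in RGL and 84.3, 86.2 and 86.4 CPM in SGL, a log2 fold change of 0.64 ± 0.10 (edgeR adjusted p = 0.00151). Both were above SGL in every RGL library. LOC114130650, ligase 5, had 51.4, 45.5 and 43.1 CPM in RGL and 47.9, 52.3 and 54.5 CPM in SGL, overlapping, with a log2 fold change of -0.15 ± 0.10 (edgeR adjusted p = 0.306) that passed the threshold without RGL replicate 1, at 0.0274, and with library totals alone, at 0.0446.

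Among the enzyme classes, the summed level differed between the strains most in the carboxylases and synthases, which start the pathway. The ratio of the RGL mean to the SGL mean of the summed TMM-scaled FPKM was 2.36 for the carboxylases and 2.44 for the synthases, 1.63 for the ligases, 1.60 for the elongases and 1.18 for the other elongation steps. It was 1.08 for the reductases and 1.06 for the desaturases. All 70 genes summed to 5926 ± 207 in RGL and 4450 ± 76.6 in SGL (SD, n = 3 each), a ratio of 1.33. The order of the classes was not tested. The carboxylase sum includes the short locus newGene_773, whose value is uncertain and whose FPKM and counts disagree. Its means in RGL and SGL were 42.2 and 9.45 TMM-scaled FPKM, but 28.4 and 7.89 CPM. The main locus LOC114122529 alone had means of 132 TMM-scaled FPKM in RGL and 64.4 in SGL. Cytochrome P450 4g15 (LOC114132456), named for the family of the last step to hydrocarbons, is outside these classes. It had means of 709 TMM-scaled FPKM in RGL and 235 in SGL, a 2.99-fold difference by edgeR.

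**Figure D3:**
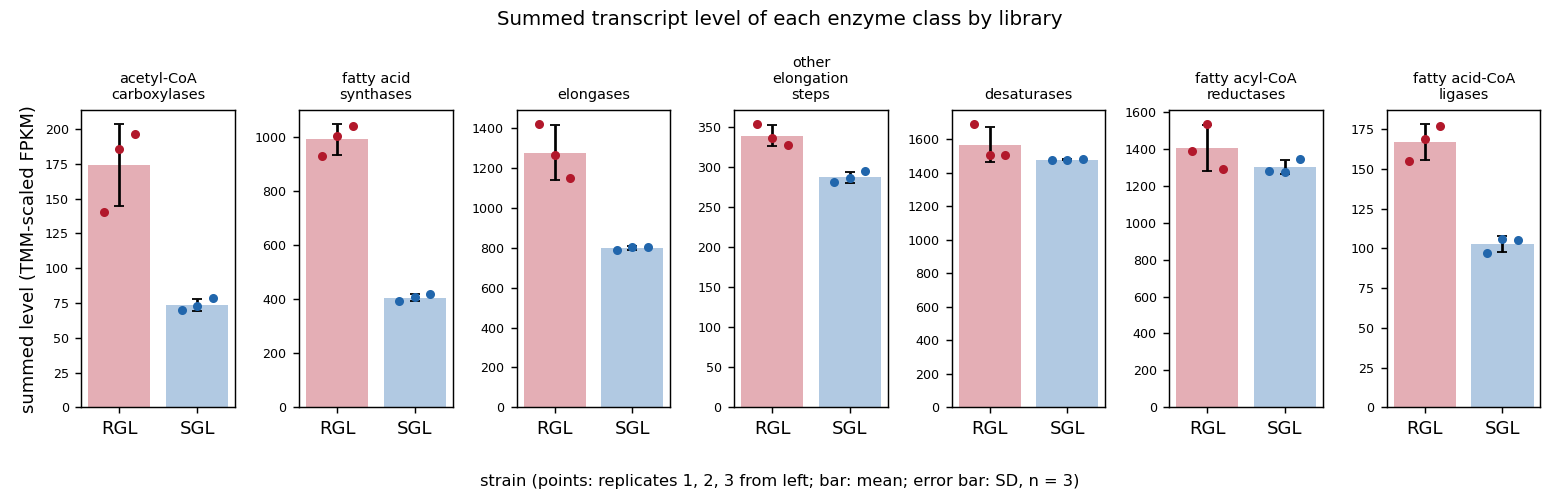
Summed TMM-scaled FPKM of each enzyme class in every library (points, replicates 1 to 3 from left; bars give the mean and error bars the SD, n = 3), RGL left of SGL in each panel, with each vertical axis starting at 0. RGL lies clear of SGL in the carboxylases, synthases, elongases, other elongation steps and ligases, with 930 to 1041 against 392 to 421 for the synthases, is narrowly above it in the desaturases, and overlaps SGL in the reductases.

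The deviation of RGL replicate 1 from the other RGL libraries differed in sign between some classes, but had no clear direction over the 67 genes together. The measure was its log2(CPM + 0.1) minus the mean of replicates 2 and 3. Its median was -0.54 over the 2 carboxylases and -0.26 over the 12 tested synthases, of which 9 were lowest and 2 highest in replicate 1. Over the 8 desaturases it was 0.42, with 7 highest and 1 lowest in replicate 1, where 42% of all tested genes were highest and 45% lowest in that library. Over the elongases the median was -0.07, with 6 highest and 7 lowest, and over the reductases 0.01, with 9 highest and 7 lowest. The medians of the other elongation steps and the ligases were 0.11 and -0.14. Of all 67 tested genes of the pathway 28 were highest and 29 lowest in replicate 1, near the shares of all tested genes. Their median was 0.0055. The summed cuticle protein markers were also highest in replicate 1, at 30173 CPM against 19082 and 17009 CPM in RGL replicates 2 and 3, and gut markers were at 12508 CPM against 9585 and 9343 CPM. The part of these markers in the deviation was not tested.

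**Figure D4:**
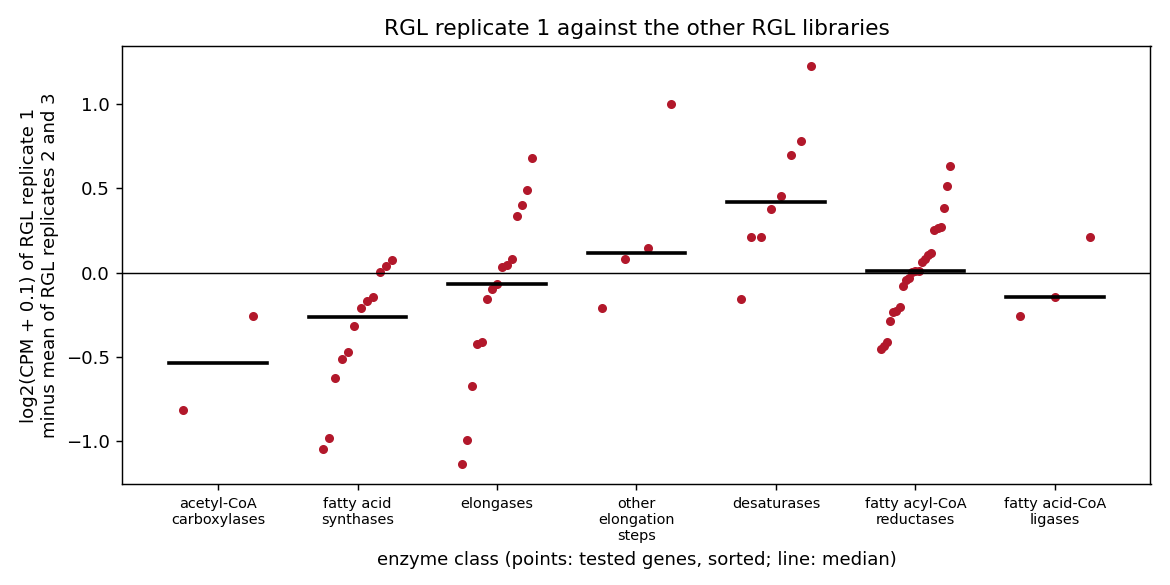
Log2(CPM + 0.1) of RGL replicate 1 minus the mean of RGL replicates 2 and 3 for each tested gene (points, sorted within an enzyme class; line, class median). The synthase median lies below 0 at -0.26 and the desaturase median above 0 at 0.42.

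Many of these genes are neighbours in the genome. Of the 70 genes 61 matched the RefSeq gene table of assembly ASM2018417v2, and 37 of them fell into 13 groups in which each lies within 5 protein-coding genes of the next, a limit chosen after the data were seen. As the build behind the counts is not named, only the gene order was used. The synthases LOC114121653, LOC114121664, LOC114121660 and LOC114121661 follow each other, and all 4 were higher in RGL. In a second group the higher synthases LOC114121761, LOC114121759 and LOC114121762 lie close to LOC114129891, the gene with the lowest fold change of the 67. The desaturases LOC114119128 and LOC114119131, both higher, lie next to LOC114119124, which was not called. Among LOC114121724, LOC114121739 and LOC114121747, which also lie side by side, the first and last were higher and the middle one was lower. Some neighbouring elongases likewise differed: LOC114119097 was higher beside LOC114119098, at -0.06, and LOC114120762 was higher beside LOC114120749, at 0.14. Others did not: LOC114124151 and LOC114124150 were both higher (1.11 and 0.57). LOC114122980 and LOC114122945 were both below 0 and not called (-0.70 and -0.48).

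Genes that feed the pathway were partly higher too. Of 25 tested genes matched as suppliers of precursors and cofactors, 12 (48.0%) were higher and 1 lower, against 21.4% and 14.4% of all tested genes, with a median log2 fold change of 0.42. Without RGL replicate 1 there were 15 higher and 1 lower (28.6% and 24.9% of all tested genes), and with library totals alone 9 and 1 (15.8% and 20.8%). The tricarboxylate transporter LOC114125967, which brings citrate out of the mitochondrion, had 104, 110 and 109 CPM in RGL and 41.0, 42.2 and 46.6 CPM in SGL, a log2 fold change of 1.32 ± 0.09 (edgeR adjusted p = 3.51e-05). ATP-citrate synthase (LOC114119839), which splits that citrate into acetyl-CoA and oxaloacetate, had 1024, 1118 and 1238 CPM in RGL and 601, 614 and 614 CPM in SGL, a log2 fold change of 0.89 ± 0.10 (edgeR adjusted p = 0.000413). The NADPH producers 6-phosphogluconate dehydrogenase (LOC114124401) and NADP-dependent malic enzyme (LOC114123432) were higher by 0.64 ± 0.11 and 0.56 ± 0.10 on the log2 scale. Glucose-6-phosphate dehydrogenase (LOC114125017), the entry enzyme of the same NADPH-producing pathway, was higher by 0.33 ± 0.08 (edgeR adjusted p = 0.011), a call lost without SGL replicate 1, at 0.0736, without SGL replicate 3, at 0.0689, and with library totals alone, at 0.136. A second NADP-dependent malic enzyme gene, LOC114123450, averaged 162 CPM in RGL and 161 CPM in SGL and was not called (log2 fold change 0.01, edgeR adjusted p = 0.899). These suppliers were chosen for their roles after their values were seen. The greatest change of the list, 1.77 ± 0.14 (edgeR adjusted p = 8.43e-05), was that of the ethylmalonyl-CoA decarboxylase-like LOC114128574, with 47.9, 44.2 and 39.0 CPM in RGL and 14.9, 11.1 and 12.5 CPM in SGL. It is a repair enzyme and not a supplier, as is the higher LOC114128566 of the same name (1.30). The list's text also matched the higher cytochrome b561 genes LOC114128182 (1.39) and LOC114128692 (1.35), which are electron carriers of other pathways. Matched but not called were the b561 gene LOC114131645 and the succinate dehydrogenase cytochrome b560 subunit LOC114124407. The 12 higher genes and their 48.0% therefore include genes that do not feed the pathway. The lower gene, cytochrome b5 reductase 4 (LOC114123742, -0.31 ± 0.10, edgeR adjusted p = 0.0469), missed the threshold without RGL replicate 2, at 0.134, and without SGL replicates 1, 2 and 3, at 0.167, 0.0973 and 0.141.

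Transcripts of a gene named for the P450 family of the last step to hydrocarbons were higher in RGL. Only RNA was measured, and whether this gene acts in that step was not tested. LOC114132456, cytochrome P450 4g15, of the family that makes cuticular hydrocarbons in insects, had 2007, 1642 and 1502 CPM in RGL and 590, 552 and 580 CPM in SGL. All RGL libraries were far above SGL with replicate 1 the highest, and the log2 fold change was 1.58 ± 0.13 (edgeR adjusted p = 8.07e-05) and 1.45 without that replicate. NADPH-cytochrome P450 reductase (LOC114131750), which passes electrons to P450s, had 476, 545 and 539 CPM in RGL and 281, 307 and 300 CPM in SGL, a log2 fold change of 0.81 ± 0.09 (edgeR adjusted p = 0.000401). In the list of use and carriage of fatty acids, which holds the 4g15 gene, 11 of 17 (64.7%) were higher and 1 lower, against 21.4% and 14.4% of all tested genes, with a median of 0.38. The higher count was 4, 6 and 4 without SGL replicates 1, 2 and 3 and 7, with 2 lower, with library totals alone (15.8% and 20.8% of all tested genes). The lower gene, the acyl-CoA-binding domain protein LOC114132204 (-0.27 ± 0.09, edgeR adjusted p = 0.0469), missed the threshold without RGL replicate 2, at 0.0695, and without SGL replicates 1 to 3, at 0.106, 0.171 and 0.117.

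Genes of fatty acid breakdown were in part higher as well. Of 30 tested genes 16 (53.3%) were higher, against 21.4% of all tested genes, with a median log2 fold change of 0.41; 0 were lower by edgeR, at an unadjusted p under 0.05, by DESeq2 or by limma-voom. With library totals alone 12 were higher and 1 lower (15.8% and 20.8% of all tested genes). The list was matched by product text and may include genes that do not break down fatty acids. Among the higher ones are short/branched chain acyl-CoA dehydrogenase (LOC114124068, 1.13) and 3-hydroxyacyl-CoA dehydrogenase type-2 (LOC114131679, 0.58). Not called were the electron transfer flavoprotein methyltransferase LOC114125891 and regulatory factor LOC114123359, and acyl-CoA dehydrogenase family member 9 (LOC114127947). The higher count was 10 without SGL replicate 1, and 1 gene was lower without RGL replicate 1 and 1 without RGL replicate 3. Acyl-CoA oxidase starts peroxisomal oxidation, and 1 of its 3 genes was called. LOC114119363, named oxidase 1, had 27.6, 27.3 and 24.1 CPM in RGL and 10.2, 11.7 and 10.1 CPM in SGL, a log2 fold change of 1.31 ± 0.13 (edgeR adjusted p = 0.000181). The more abundant LOC114119353, also named oxidase 1, had 104, 130 and 131 CPM in RGL and 117, 121 and 125 CPM in SGL, a log2 fold change of 0.01 (edgeR adjusted p = 0.965). LOC114121532, named oxidase 3, averaged 49.0 CPM in RGL and 45.8 CPM in SGL and was not called (0.10, edgeR adjusted p = 0.535), and the libraries of the strains overlapped in both of these genes. The carnitine palmitoyltransferases that admit fatty acids to the mitochondrion, LOC114124632 and LOC114122536, were at -0.02 and -0.04 and not called (edgeR adjusted p = 0.869 and 0.849). Enzymes of mitochondrial oxidation were among the 16 higher genes. The trifunctional enzyme alpha subunit LOC114130103 was at 0.74 ± 0.11 and the 3-ketoacyl-CoA thiolase LOC114129238 at 0.74 ± 0.08 (edgeR adjusted p = 0.00157 and 0.000267). Of the 30 genes 14 were not called, such as the hydroxyacyl-CoA dehydrogenase LOC114130161 (0.10, edgeR adjusted p = 0.397). These 3 were chosen after their values were seen.

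Among 6 genes for regulators of lipid synthesis, 0 were higher and 1 was lower by edgeR, against 21.4% and 14.4% of all tested genes. At an unadjusted p under 0.05 the higher count was 1, and by DESeq2 and limma-voom it was 0. The sterol regulatory element-binding protein gene LOC114120374, whose product activates lipid synthesis genes in Drosophila and mammals, had a log2 fold change of 0.06 (edgeR adjusted p = 0.662). The list is not of activators alone, as it also holds subunits of AMP-activated protein kinase. These, LOC114119146, LOC114126494 and LOC114128216, were at -0.14, -0.20 and -0.21 and not called. Max-like protein X (LOC114129630), at 0.29, was not called either. The lower gene, that of the SREBP cleavage-activating protein, LOC114122624, had 65.8, 79.7 and 84.7 CPM in RGL and 97.4, 97.2 and 103 CPM in SGL. Every RGL library lay below SGL, at a log2 fold change of -0.37 ± 0.11 (edgeR adjusted p = 0.0287), but the adjusted p was 0.0524 without RGL replicate 2 and 0.0863, 0.0852 and 0.0985 without SGL replicates 1, 2 and 3. Without RGL replicate 1 the list gave 1 higher and 3 lower, where 28.6% and 24.9% of all tested genes were called.

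**Figure D5:**
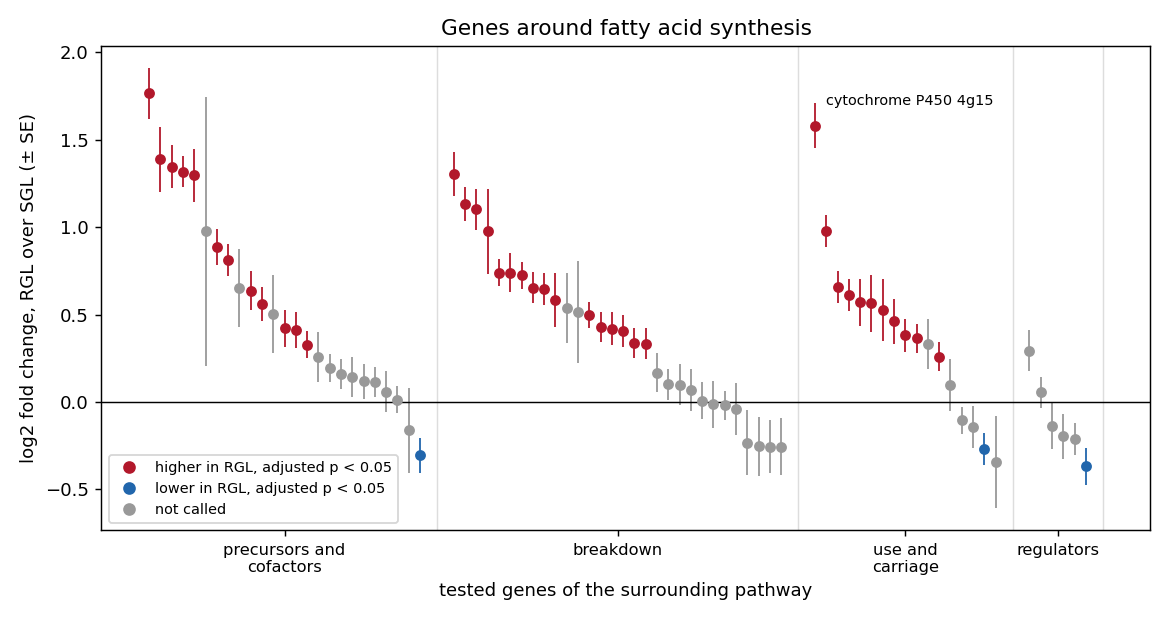
Log2 fold change of RGL over SGL (points, bars give the SE) for tested genes of the 4 lists around fatty acid synthesis, sorted within a list; red is higher and blue lower in RGL at an adjusted p under 0.05. Cytochrome P450 4g15, at 1.58, heads the list of use and carriage, and the 6 regulators lie between -0.37 and 0.29.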

How the data were processed

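The deposited table gives, per the file headers, whole-number read counts for 14013 genes in 6 libraries, not normalized, and the authors' FPKM values for the same libraries; 0 columns of per-sample values were left unmatched. Tools named in the submitters' processing notes are HISAT2 and fastp 0.22.0. No source used here gives the counter, its strand setting, the annotation or the build, so overlapping, antisense and near-identical genes cannot be told apart. Counts of the whole table were fitted with edgeR 4.0.16 in R 4.3.3 (TMM, filterByExpr with a minimum count of 10 and total of 15, robust quasi-likelihood test on strain, two-sided, Benjamini-Hochberg over 11149 genes). SE is the log2 fold change over the square root of F. The deposited FPKM values follow counts per library total, so they were divided by the TMM factor and used only for levels and implied lengths.

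All pairs of libraries within a strain were farther apart than counting error alone gives, with 6.94 to 123 chi-square units per degree of freedom, and each was kept as a sample. The script was tested on simulated data. Library values are given for up to 5 called genes per class and direction with the greatest change, at least 5 CPM and no overlap between strains, and for the most abundant gene of a class; every carboxylase was included, and in the other lists the greatest change per direction and the P450 4g gene. Other genes with library values were chosen after their values were seen. The genes and lists were chosen with earlier results of these data known. Alternatives used DESeq2 1.42.0 and limma 3.58.1. Python 3.11.15 with numpy 2.4.6 and pandas 2.3.3 served for the tables.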

Additional observations from a re-analysis of the deposited data

How the results depend on the processing

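Under the 13 alternative settings 27 of the 39 higher genes and 2 of the 3 lower genes (LOC114129891 and LOC114121739) were called each time, and no called gene changed sign under any of them. The count of higher genes was 38 with DESeq2's size factors, 31 with library totals alone, 40 with the DESeq2 Wald test, 38 with limma-voom, 40 with no filter and 38 with CPM above 1 in at least 3 libraries; leaving out 1 library gave 30 to 42, and 21 of the 39 were at least 2-fold higher. The 40 with no filter and the 42 include newGene_1932, which had 0 counts in SGL. The count of lower genes was 7 with library totals alone and 6 with the DESeq2 Wald test. Leaving out 1 library gave 2 to 6 lower genes, with 6 without RGL replicate 1. Samples with the same replicate number did not deviate together (correlations of -0.011, -0.030 and -0.015). With 3 libraries per strain these values cannot show whether the libraries were prepared in pairs. With the replicate block 37 genes were higher and 2 lower. The calls of LOC114124150, LOC114130889 and LOC114129900 were lost with it, at edgeR adjusted p = 0.0777, 0.0526 and 0.111. The effect of depth on the calls was not tested.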
